A study of Danio rerio with 12 samples.

Results

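The 9 genes fli1a, kdrl, cdh5, aplnra, aplnrb, tal1, lmo2, gata1a and lcp1 are described here across zebrafish embryos that lost prdm1, pbx2 and pbx4 function, or both. They were chosen by name, as genes known from vessel and blood precursors, with earlier results of these data known. All 9 were found among 31051 gene identifiers, each with 1 identifier, and all 9 were among the 18117 genes that passed a filter on low counts and were tested. RNA was sequenced from AB strain embryos at 10 somites, in 4 groups of 3 libraries. The groups called controls (prdm1+/+) and prdm1 mutants (prdm1-/-) received a control morpholino. The pbx2/4 morphants (prdm1+/+) and the double embryos (prdm1-/-) received morpholinos against pbx2 and pbx4 in its place. Morpholinos are antisense oligonucleotides that block the translation or splicing of an RNA, and every group was injected at the stage of 1 cell. RNA was taken from whole single embryos and pooled by group after genotyping, and per the labels the replicates come from independent egg collections with their own injections. Which prdm1 allele the mutants carry is not given.

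In the zebrafish embryo, precursors of vessels and of blood arise close together in the lateral plate mesoderm. Ets factors such as Fli1a and the complex-forming factors Tal1 and Lmo2 act early in this tissue. Gata1a then directs the red cell fate, and the anterior part of the same mesoderm gives rise to early macrophages. The receptor Kdrl and the junction protein Cdh5 belong to endothelial cells. Apelin receptors, encoded by aplnra and aplnrb, act in the migration of mesoderm and of precursors of heart and vessels. Pbx proteins are homeodomain partners of Hox and other transcription factors. Prdm1a is a zinc-finger factor needed for slow muscle and for cells at the border of the neural plate.

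Total estimated counts were 9059663 to 17236848 per library, so that 1 count corresponded to 0.0572 to 0.115 CPM (read counts scaled to library size). The libraries form 3 sets by the form of their names in the count table, called A, B and C here, each with 1 library of each group. On the first principal component, which held 31.9% of the variance, the 4 libraries of set B lay at 32.8 to 52.3 and the other 8 at -34.3 to -6.80. RNA of the targeted genes was not lower in the groups that lost them. prdm1a had 94.8 to 113 CPM in controls and 132 to 144 CPM in prdm1 mutants. pbx2 had 43.0 to 67.7 CPM in controls and 225 to 296 CPM in pbx2/4 morphants. pbx4 had 284 to 354 CPM in controls and 390 to 474 CPM in pbx2/4 morphants. They say nothing on how much protein was lost, since a morpholino can act without lowering its target's RNA.

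With the pbx2/4 morpholinos, the apelin receptor gene aplnrb rose and lcp1, used as a marker of leukocytes, fell, in prdm1+/+ and in prdm1-/- embryos. aplnrb was at 163% of its control mean in pbx2/4 morphants and at 151% in double embryos. lcp1 was at 16.6% and 14.0% of its control mean in the same groups. The other 7 genes passed the test in no comparison without a block for the set, and none of the 9 passed it for the loss of prdm1. The plot of levels in each library shows all 9 genes. Values below are given in the order of sets A, B and C, and mean ± SD is over the 3 libraries of a group.

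**Figure D1:**
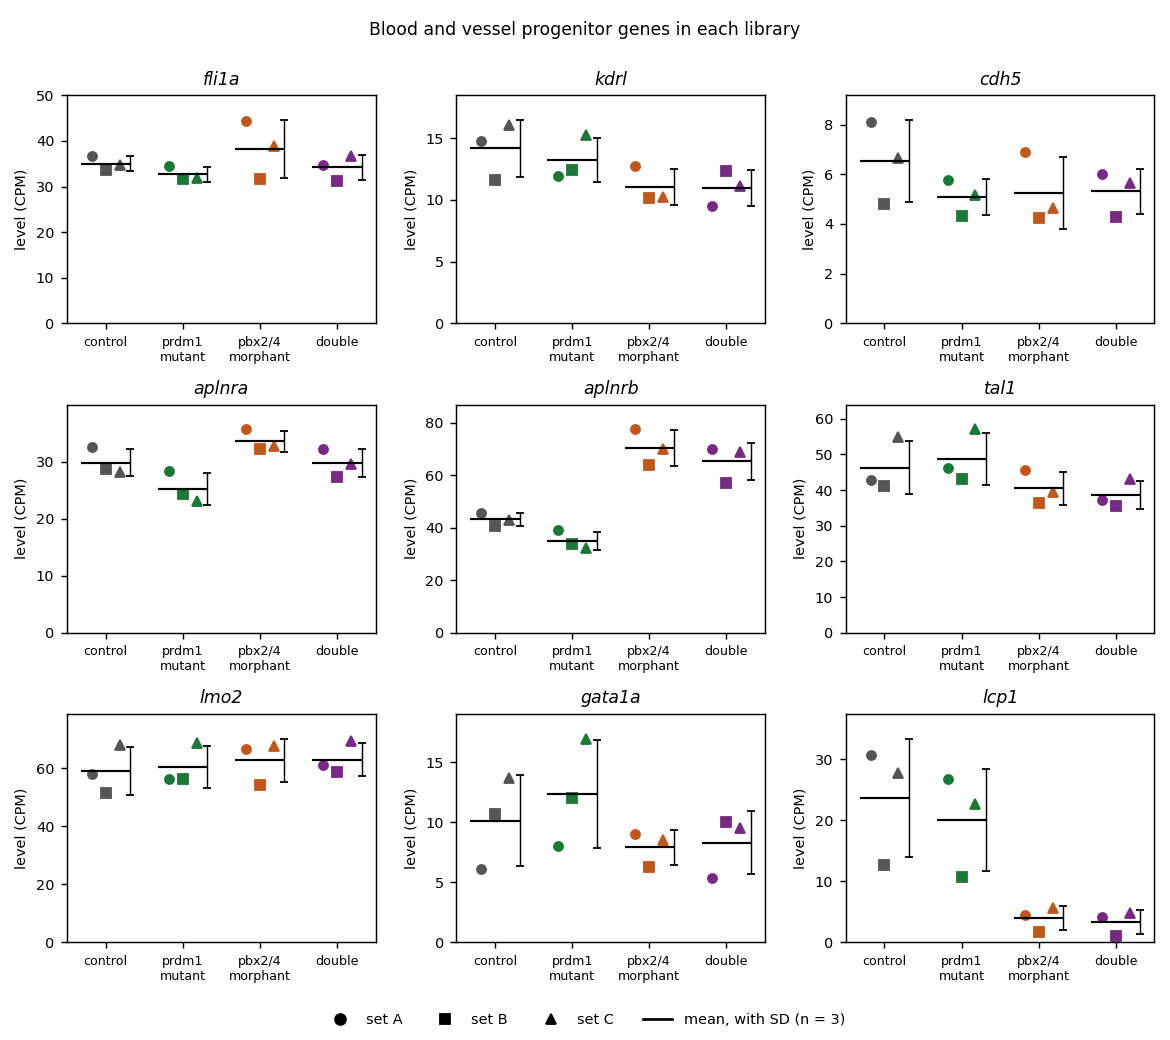
Level of each of the 9 genes in the 12 libraries, in CPM on linear axes that start at 0, by group; symbols mark the column-name set, and lines with bars give the mean and SD of 3 libraries. aplnrb lay at 57.2 to 77.6 CPM in the 6 libraries with pbx2/4 morpholinos against 32.5 to 45.7 CPM in the other 6, and lcp1 at 1.05 to 5.58 against 10.7 to 30.7 CPM.

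aplnrb (ENSDARG00000036670) encodes a G protein-coupled receptor for Apelin and Apela. Its level was 45.7, 40.8 and 43.0 CPM in the 3 controls and 39.0, 33.6 and 32.5 CPM in the prdm1 mutants. It was 77.6, 64.0 and 69.9 CPM in the pbx2/4 morphants and 69.9, 57.2 and 68.9 CPM in the double embryos. Every library with pbx2/4 morpholinos was above every library without them, with medians of 69.4 and 39.9 CPM. In prdm1+/+ embryos the mean rose from 43.1 ± 2.47 CPM to 70.5 ± 6.79 CPM with the pbx2/4 morpholinos, a log2 fold change of 0.71 (SE 0.13, edgeR quasi-likelihood test with Benjamini-Hochberg adjustment, adjusted p = 0.0156). The within-set differences of log2 CPM were 0.76, 0.65 and 0.70. In prdm1-/- embryos it rose from 35.0 ± 3.49 CPM to 65.4 ± 7.06 CPM, a log2 fold change of 0.90 (SE 0.13, edgeR adjusted p = 0.00404), with 0.84, 0.76 and 1.08 within the sets. These contrasts share no libraries, and the rise was seen once in each prdm1 genotype. They do share the 3 sets and 1 fit to all 12 libraries, so they are not fully independent. For double embryos against controls the log2 fold change was 0.60 (SE 0.13, edgeR adjusted p = 0.0279). This last comparison shares the controls with that of the morphants.

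The call for aplnrb in double embryos against prdm1 mutants held in each of 6 fits that left out 1 library, with adjusted p from 0.00689 to 0.0363. In pbx2/4 morphants it was lost without the control of set B, the control of set C, the morphant of set A or the morphant of set C, with log2 fold changes of 0.63 to 0.77 and adjusted p up to 0.0843. In double embryos against controls it was lost without any 1 of the controls or of the double libraries of sets A and C, with log2 fold changes of 0.55 to 0.69 and adjusted p up to 0.120. With the set as a block, the call held in all 6 such fits of all 3 comparisons, with adjusted p up to 0.000954. Without the 4 libraries of set B, the log2 fold changes of aplnrb were 0.73 and 0.65 against controls (edgeR adjusted p = 0.0775 and 0.0761, no call) and 0.96 in double embryos against prdm1 mutants (edgeR adjusted p = 0.0225).

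aplnra (ENSDARG00000078356) encodes the paralogous apelin receptor. Its levels were 32.5, 28.7 and 28.2 CPM in controls, 28.3, 24.3 and 23.0 CPM in prdm1 mutants, 35.7, 32.2 and 32.8 CPM in pbx2/4 morphants and 32.2, 27.3 and 29.6 CPM in double embryos. The ranges of the 6 libraries with and the 6 without pbx2/4 morpholinos overlapped. The log2 fold change with the pbx2/4 morpholinos was 0.17 in prdm1+/+ embryos (95% interval -0.10 to 0.44, edgeR adjusted p = 0.689). In prdm1-/- embryos it was 0.24 (interval -0.03 to 0.51, edgeR adjusted p = 0.527, and 0.0395 with the set as a block). The corresponding intervals of aplnrb were 0.44 to 0.98 and 0.63 to 1.18, and the difference between the paralogs was not tested. For aplnra, 6 libraries held estimated counts that were not whole, so reads may have been divided between it and other features, and aplnrb had none.

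The ligand genes were not called. apln, which encodes Apelin, had 3.30, 3.66, 3.01 and 3.63 CPM on average in controls, prdm1 mutants, pbx2/4 morphants and double embryos. apela, which encodes the other ligand and is listed under the clone name si:ch211-42i9.4, had 33.4, 37.1, 36.2 and 36.7 CPM in the same order. Their log2 fold changes in pbx2/4 morphants were -0.13 and 0.11 (edgeR adjusted p = 0.924 and 0.878). Both were named here after their values were seen.

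lcp1 (ENSDARG00000023188) encodes L-plastin, an actin-bundling protein that in the zebrafish embryo is used as a marker of leukocytes. Its level was 30.7, 12.6 and 27.8 CPM in the controls and 26.7, 10.7 and 22.7 CPM in the prdm1 mutants. It was 4.50, 1.73 and 5.58 CPM in the pbx2/4 morphants and 4.18, 1.05 and 4.75 CPM in the double embryos. All 6 libraries with pbx2/4 morpholinos were below all 6 without them, and set B had the lowest value of each group. The estimated counts behind these levels ran from 10 to 442 per library. In prdm1+/+ embryos the mean fell from 23.7 ± 9.70 CPM to 3.94 ± 1.99 CPM with the pbx2/4 morpholinos, a log2 fold change of -2.56 (SE 0.53, edgeR adjusted p = 0.0338). Within the sets the differences were -2.72, -2.76 and -2.29. In prdm1-/- embryos it fell from 20.03 ± 8.33 CPM to 3.33 ± 1.99 CPM, a log2 fold change of -2.54 (SE 0.53, edgeR adjusted p = 0.0388), with -2.63, -3.17 and -2.22 within the sets. Double embryos were below controls by a log2 fold change of -2.79 (SE 0.54, edgeR adjusted p = 0.0176). In whole-embryo RNA, fewer cells of a type and less RNA per cell cannot be told apart.

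The lcp1 calls depended on the libraries in the fit, while its log2 fold changes ran from -3.15 to -2.17 over the fits that left out 1 library. Without the set as a block, the call in pbx2/4 morphants was kept only when the control of set B was left out, and the other 5 fits that left out 1 library lost it, with log2 fold changes of -2.91 to -2.23 over the 6 and adjusted p up to 0.137. The call in double embryos against prdm1 mutants was likewise kept only without the prdm1 mutant of set B, with -2.91 to -2.17 and adjusted p up to 0.138. Against controls, the call was lost when the controls of set A or C, or the double libraries of set A or B, were left out 1 at a time, with -3.15 to -2.41 and adjusted p up to 0.0789. With the block, all 6 fits of all 3 comparisons called lcp1, with adjusted p up to 1.97e-05. Without the 4 libraries of set B, lcp1 was called in all 3 comparisons, with log2 fold changes of -2.53, -2.70 and -2.46 (edgeR adjusted p = 0.00169, 0.000655 and 0.00143). In RefSeq GRCz12tu, lcp1 overlaps lrrc63, which had no value under that name, and 5 libraries held a fractional count for lcp1. The sources used here do not say whether the counting used strand, so reads of overlapping genes cannot be told apart.

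Many of the leukocyte genes listed held few counts at this stage in any group. Of 22 myeloid genes listed, 20 were found, of which 9 were tested and 11 were below the filter. spi1b, an early myeloid factor, and fcer1gl were not found under those names, so they have no value here. The 11 below it held from 4 estimated counts over all 12 libraries for mpx, the neutrophil peroxidase, to 92 for MARCO, a macrophage scavenger receptor. mpx was at 0 in 8 libraries. csf1ra, the receptor for a macrophage growth factor, had 67 counts in all and ptprc, a surface phosphatase of all leukocytes, had 16. lcp1 held 10 to 442 estimated counts in single libraries, whereas the counts above are totals over all 12. Gene lengths were not used, so these counts are not compared between genes. Which cells the lcp1 RNA came from was not tested. The summed level of the 20 genes was 154 to 186 CPM in controls, 137 to 197 in prdm1 mutants, 157 to 183 in pbx2/4 morphants and 158 to 194 in double embryos, ranges that overlap. Much of this sum came from cebpa and cebpb, with means of 82.3 and 36.1 CPM in controls. It therefore says little about the genes below the filter. None of the 9 tested was called in any of the 6 contrasts. At an unadjusted p under 0.05, 1 gene passed in pbx2/4 morphants and 0 in double embryos against either control, and DESeq2 called 0 in all 3. With the set as a block, 2, 0 and 1 of the 9 were called, all higher. Of all tested genes, 12.02%, 13.6% and 11.6% had an unadjusted p under 0.05 in these 3 comparisons. edgeR called 1.44%, 2.25% and 1.36% of all tested genes, and 17.7%, 20.2% and 16.2% with the block. Beside these shares, the counts say little about the 9 genes. The median log2 fold change of the 9 was 0.08 in pbx2/4 morphants, 0.23 in double embryos against controls and 0.09 in double embryos against prdm1 mutants. cxcr4b, a chemokine receptor, and slc7a7, an amino acid transporter of macrophages, had the smallest p, with log2 fold changes of 0.37 in pbx2/4 morphants (edgeR adjusted p = 0.394, 0.0291 with the block) and 0.29 in double embryos against controls (edgeR adjusted p = 0.517).

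The blood transcription factor genes passed no test without the block. tal1 (ENSDARG00000019930), a bHLH factor at the top of blood formation, had 42.7, 41.2 and 54.9 CPM in controls and 46.2, 43.1 and 57.1 CPM in prdm1 mutants. In pbx2/4 morphants it had 45.5, 36.4 and 39.6 CPM, and 37.3, 35.4 and 43.1 CPM in double embryos. The ranges with and without pbx2/4 morpholinos overlapped, 35.4 to 45.5 against 41.2 to 57.1 CPM. Its log2 fold change in double embryos against prdm1 mutants was -0.34 (interval -0.68 to 0.00, edgeR adjusted p = 0.435), with -0.31, -0.28 and -0.40 within the sets, and with the block it was called (adjusted p = 0.026). In prdm1+/+ embryos the value was -0.19 (interval -0.53 to 0.14, edgeR adjusted p = 0.734), with 0.09, -0.18 and -0.47 within the sets, so set A had the opposite sign.

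lmo2 (ENSDARG00000095019), which encodes a LIM-only partner of Tal1, had 58.0, 51.4 and 67.9 CPM in controls and 56.3, 56.1 and 68.6 CPM in prdm1 mutants. It had 66.5, 54.0 and 67.5 CPM in pbx2/4 morphants and 61.1, 58.5 and 69.3 CPM in double embryos. Its 4 group means lay between 59.1 and 62.9 CPM, closer together than the SDs of 5.65 to 8.28 CPM. The 95% interval of its log2 fold change was -0.23 to 0.39 in pbx2/4 morphants and -0.25 to 0.37 in double embryos against prdm1 mutants. gata1a (ENSDARG00000013477), the zinc-finger factor of the red cell lineage, had 6.07, 10.7 and 13.7 CPM in controls, 8.04, 12.02 and 16.99 CPM in prdm1 mutants, 9.002, 6.25 and 8.49 CPM in pbx2/4 morphants and 5.31, 10.1 and 9.56 CPM in double embryos. These values are spread widely within groups, and the set held 42.9% of the variance of gata1a. A log2 fold change of -0.57 in double embryos against prdm1 mutants came with an interval of -1.32 to 0.17 (edgeR adjusted p = 0.610). Within the sets the differences were -0.58, -0.25 and -0.82, and with the block it was not called (edgeR adjusted p = 0.0914). In pbx2/4 morphants the value was -0.36, with 0.56 in set A against -0.76 and -0.68 in sets B and C.

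The endothelial genes passed no test in any contrast in the fits to all 12 libraries, with or without the block. fli1a (ENSDARG00000054632), an Ets factor of vessel and blood precursors, had 36.7, 33.5 and 34.8 CPM in controls, 34.6, 31.6 and 31.9 in prdm1 mutants, 44.4, 31.7 and 38.8 in pbx2/4 morphants and 34.8, 31.1 and 36.7 in double embryos. Its log2 fold change in pbx2/4 morphants was 0.13 (interval -0.16 to 0.42), and 0.012 to 0.25 when 1 library was left out. kdrl (ENSDARG00000015815), a receptor for vascular endothelial growth factor, had 14.8, 11.6 and 16.1 CPM in controls, 11.98, 12.5 and 15.3 in prdm1 mutants, 12.8, 10.2 and 10.2 in pbx2/4 morphants and 9.49, 12.4 and 11.1 in double embryos. Its log2 fold change was -0.36 in pbx2/4 morphants (interval -0.75 to 0.02, edgeR adjusted p = 0.455) and -0.37 in double embryos against controls (interval -0.76 to 0.01, edgeR adjusted p = 0.389). With the block and 1 library left out, kdrl was called in 1 of 6 fits of each comparison (lowest edgeR adjusted p = 0.0401 and 0.0323). The groups overlapped for both genes. cdh5 (ENSDARG00000075549), the cadherin of endothelial junctions, had 39 to 106 estimated counts per library. It had 8.13, 4.82 and 6.67 CPM in controls, 5.79, 4.34 and 5.18 in prdm1 mutants, 6.91, 4.23 and 4.63 in pbx2/4 morphants and 6.01, 4.30 and 5.67 in double embryos, with set B lowest in each group. Its interval in pbx2/4 morphants, -0.87 to 0.23, spans both directions.

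Counted over the 9 genes, 2 were called with the pbx2/4 morpholinos in each of 3 comparisons, 1 higher and 1 lower. The 9 were chosen with earlier results of these data known, so the shares of all genes beside these counts are descriptions. In pbx2/4 morphants against controls, 1.44% of all tested genes were called, 0.552% higher and 0.883% lower. For double embryos against controls these shares were 2.25%, 0.833% and 1.41%. For double embryos against prdm1 mutants they were 1.36%, 0.552% and 0.811%. With the set as a block, the calls among the 9 were 2, 2 and 4, against 17.7%, 20.2% and 16.2% of all tested genes, so that with the block the first 2 counts are near the background. Of all tested genes, 2.56% had all 6 libraries with pbx2/4 morpholinos above all 6 without and 3.71% had all 6 below, and of the 9 genes aplnrb and lcp1 were 1 each. The median log2 fold change of the 9 was -0.19, -0.26 and 0.06 in these comparisons, beside 0.01 over all genes in each. Of the 9 log2 fold changes, 5, 7 and 4 were below 0. The 2 calls without the block were aplnrb and lcp1, with opposite signs, and the block added aplnra and tal1 in double embryos against prdm1 mutants.

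**Figure D2:**
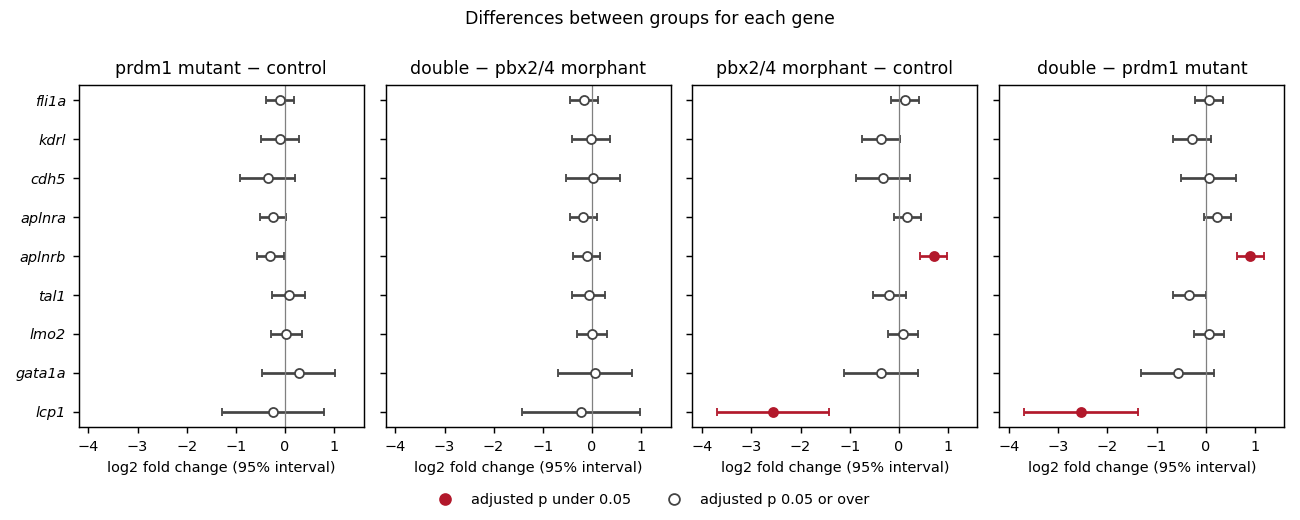
Log2 fold change of each gene with its 95% interval, for the loss of prdm1 (left pair of panels) and for the pbx2/4 morpholinos (right pair), from the edgeR fit to all 12 libraries; filled points have an adjusted p under 0.05. aplnrb and lcp1 are filled in both morpholino panels, at 0.71 and -2.56 in prdm1+/+ embryos and at 0.90 and -2.54 in prdm1-/- embryos, and no gene is filled in the left pair.

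The loss of prdm1 was compared in embryos with the control morpholino and in pbx2/4 morphants, in contrasts that share the sets but no libraries. None of the 9 genes was called in prdm1 mutants against controls, where 0.193% of all genes were called. At an unadjusted p under 0.05 there was 1 of the 9, beside 2.65% of all genes. That gene was aplnrb, with a log2 fold change of -0.30 (interval -0.58 to -0.03, edgeR adjusted p = 0.9999, and 0.0724 with the block). Its differences within the sets were -0.23, -0.28 and -0.40. aplnra was at -0.24 (interval -0.51 to 0.03), with -0.20, -0.24 and -0.29 within the sets. lcp1 was at -0.24 with an interval of -1.28 to 0.80, and gata1a at 0.28 with an interval of -0.46 to 1.02. In double embryos against pbx2/4 morphants, 0.149% of all genes were called, with none of the 9. At an unadjusted p under 0.05 there was none of the 9, beside 2.71% of all genes. DESeq2 called none of the 9 in either contrast. There the log2 fold changes ran from -0.23 for lcp1 (interval -1.43 to 0.98) to 0.07 for gata1a (interval -0.68 to 0.82), and aplnrb was at -0.11 (interval -0.38 to 0.16).

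The interaction contrast asked whether the loss of prdm1 had another effect in pbx2/4 morphants than in controls. edgeR called 0% of all genes, with 103 at an unadjusted p under 0.05, and DESeq2 called 0. None of the 9 genes had an unadjusted p under 0.05. The interaction of aplnrb was 0.19 on the log2 scale (interval -0.19 to 0.58) and that of lcp1 was 0.02 (interval -1.63 to 1.66). The second interval is wide, and a difference in either direction is within it.

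The shares of variance over the 12 libraries describe how far each gene followed the morpholinos, the genotype or the set. The pbx2/4 morpholinos held 86.5% of the variance of log2 CPM for aplnrb and 77.1% for lcp1, beside a median of 10.6% over all tested genes. For kdrl, tal1 and aplnra the morpholino share was 45.3%, 39.9% and 33.6%. The prdm1 genotype held 35.3% for aplnra and 20.01% for fli1a, beside a median of 1.92%. The set held 79.0% for lmo2 and 68.5% for cdh5, beside a median of 47.0%. kdrl had the largest residual share of the 9, 45.1%. These shares are descriptions, with no test.

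**Figure D3:**
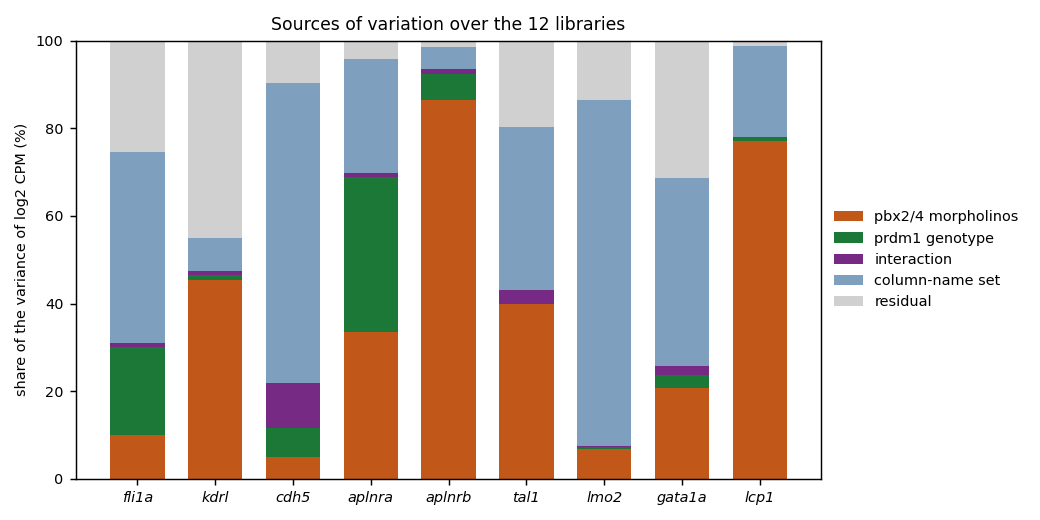
Share of the variance of log2 CPM over 12 libraries, in percent, that falls to the pbx2/4 morpholinos, the prdm1 genotype, their interaction, the column-name set and the residual, for each gene. The morpholino share is 86.5% for aplnrb and 77.1% for lcp1, and the set share is 79.0% for lmo2.

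Other genes of the same tissues were read from lists. Their counts are in the order pbx2/4 morphants against controls, double embryos against controls and double embryos against prdm1 mutants. They stand against 12.02%, 13.6% and 11.6% of all tested genes at an unadjusted p under 0.05. edgeR called 1.44%, 2.25% and 1.36% of all tested genes without the block and 17.7%, 20.2% and 16.2% with it. DESeq2 called 559, 740 and 571 genes. At such shares, 0 edgeR calls in a short list says little about its tissue. Among 25 endothelial and angioblast genes tested, of 28 listed, edgeR called 0 in each morpholino comparison. At an unadjusted p under 0.05 there were 4, 5 and 2 in the same order, DESeq2 called 1, 1 and 0, and the block called 4, 6 and 3. In pbx2/4 morphants 20 of the 25 had a log2 fold change below 0, with a median of -0.29. In the other comparisons these numbers were 18 with -0.27 and 16 with -0.15. The median over all tested genes was 0.01 in each of the 3. For the loss of prdm1 they were 17 with -0.15 against controls, so values below 0 were not particular to the morpholinos. In double embryos against pbx2/4 morphants they were 13 with -0.01. s1pr1, a receptor for sphingosine-1-phosphate, had a log2 fold change of -0.67 in pbx2/4 morphants (edgeR adjusted p = 0.116, 0.00516 with the block), and she, which encodes an SH2-domain adaptor of endothelium, had -0.57 in double embryos against controls (edgeR adjusted p = 0.0963, 0.00278 with the block). etv2, an Ets factor at the start of the vessel lineage, named here after its values were seen, had 49.8, 49.2, 50.8 and 51.3 CPM in controls, prdm1 mutants, pbx2/4 morphants and double embryos, a log2 fold change of 0.03 in the morphants.

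For 14 blood progenitor transcription factors tested, of 19 listed, edgeR again called 0 in each of these comparisons, with 2, 1 and 2 at an unadjusted p under 0.05, 0, 1 and 1 by DESeq2 and 2, 1 and 3 with the block. nfe2, a factor of red cells and platelets, had a log2 fold change of 0.36 in double embryos against prdm1 mutants, from 217 to 279 CPM (edgeR adjusted p = 0.0942, 0.0019 with the block). cbfb, the partner subunit of Runx factors, had 0.34 in pbx2/4 morphants (edgeR adjusted p = 0.302, 0.0203 with the block). The list medians were 0.06, -0.02 and 0.02. Across 17 erythroid genes tested, of 23 listed, edgeR called 0, with 2, 4 and 5 at an unadjusted p under 0.05, 0, 1 and 0 by DESeq2 and 4, 4 and 6 with the block. The list medians were -0.14, -0.18 and -0.36. In prdm1 mutants against controls the median was 0.23, with 13 of the 17 above 0 and 0 called. nt5c2l1, which encodes a nucleotidase, had -0.59 in double embryos against controls (edgeR adjusted p = 0.0931, 0.000229 with the block) and znfl2a, a zinc-finger gene, had -0.54 in pbx2/4 morphants (edgeR adjusted p = 0.156, 0.00439 with the block). The block's 6 erythroid calls in double embryos against prdm1 mutants were all lower and included embryonic globin genes, named after their values were seen. The globin hbbe3 had -1.19 there, with 6.61 ± 3.85 CPM in prdm1 mutants and 2.86 ± 1.65 CPM in double embryos (edgeR adjusted p = 0.480, 0.0223 with the block). It had 4.26 ± 2.37 CPM in controls, below the prdm1 mutants, and 1.91 ± 0.23 CPM in pbx2/4 morphants. Between these 2 groups the within-set differences were 0.45, -1.48 and -1.68, so set A had the opposite sign. Near-identical globin copies can share reads, so these counts are uncertain.

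Of 9 tested genes for apelin and vascular growth factor signals, edgeR called 0, with 1, 1 and 2 at an unadjusted p under 0.05, 0, 1 and 0 by DESeq2 and 3, 2 and 4, all higher, with the block. vegfc, a growth factor of veins and lymphatics, had a log2 fold change of 1.32 in double embryos against controls, from 1.34 to 3.32 CPM (edgeR adjusted p = 0.0765, 0.00167 with the block), and nrp2a, a co-receptor, had 0.38 in double embryos against prdm1 mutants (edgeR adjusted p = 0.336, 0.00784 with the block). Over the 5 vessel and blood lists together, with 74 genes tested, the calls were 0 in each morpholino comparison, beside 10, 11 and 11 at an unadjusted p under 0.05. Over all tested genes edgeR called 1.44%, 2.25% and 1.36%, and 12.02%, 13.6% and 11.6% had such a p, so these counts are near the background. DESeq2 called 1, 4 and 1 of the 74, beside 559, 740 and 571 of all genes. The block called 15, 13 and 17 of the 74, beside 17.7%, 20.2% and 16.2% of all genes. For the loss of prdm1, edgeR, DESeq2 and the block called 0 of the 74 in embryos with the control morpholino and in pbx2/4 morphants. At an unadjusted p under 0.05 there were 0 and 3 of the 74, beside 2.65% and 2.71% of all genes. The lists were chosen with earlier results known, and these counts are descriptions.

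**Figure D4:**
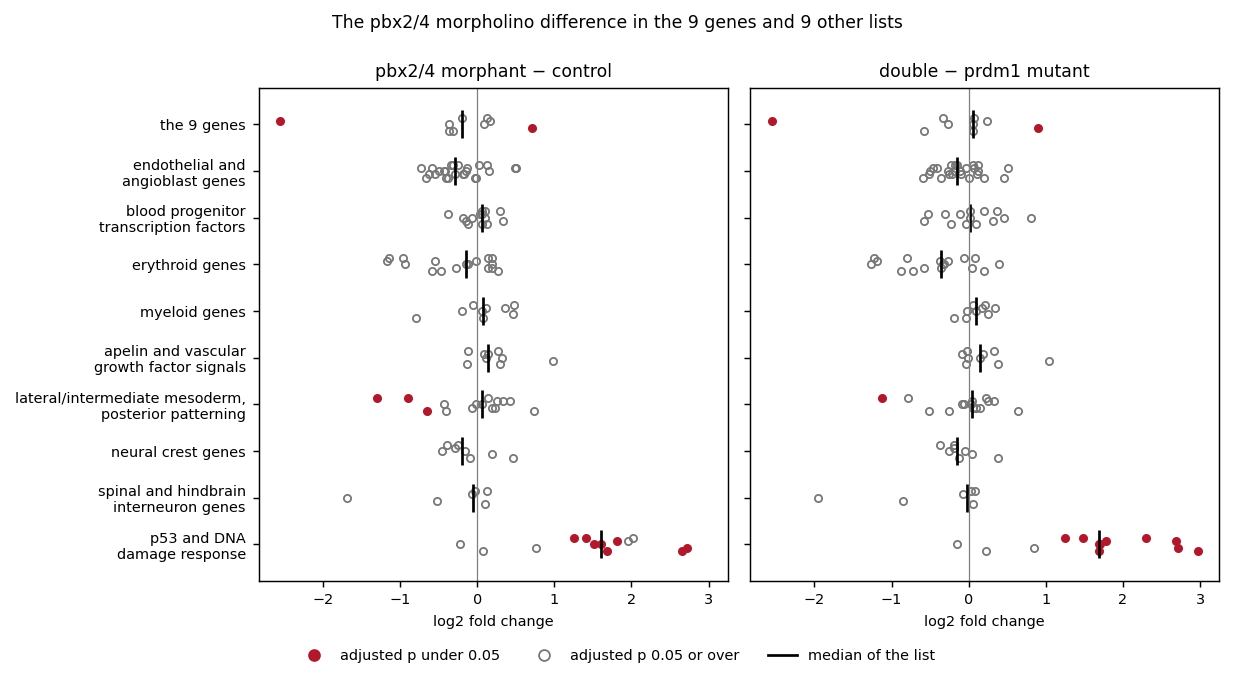
Log2 fold change with the pbx2/4 morpholinos in prdm1+/+ embryos (left) and in prdm1-/- embryos (right), each point 1 tested gene, for the 9 genes and 9 other lists; filled points have an adjusted p under 0.05 and bars mark list medians. The 5 vessel and blood lists have no filled point, and the median of the p53 list is 1.6 and 1.69.

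Lists for neighbouring tissues and for stress gave the following values in the same libraries. Of 15 tested genes of lateral and intermediate mesoderm and posterior patterning, 3 fell in pbx2/4 morphants, 3 in double embryos against controls and 1 in double embryos against prdm1 mutants, and none rose without the block. DESeq2 called 4 in each comparison, and the block called 3 higher and 3 lower, 2 higher and 4 lower, and 1 higher and 3 lower. hand2, a bHLH gene of lateral plate and heart mesoderm, named after its values were seen, had mean levels of 24.6 and 25.8 CPM in controls and prdm1 mutants, against 41.1 and 40.2 CPM in pbx2/4 morphants and double embryos. Its log2 fold change in pbx2/4 morphants was 0.74, just short of the threshold (edgeR adjusted p = 0.0551, 1.88e-05 with the block), with 0.77, 0.72 and 0.72 within the sets. cdx1a, a caudal homeobox gene, fell from 7.09 CPM in controls to 2.85 CPM in pbx2/4 morphants (log2 fold change -1.30, SE 0.21, edgeR adjusted p = 0.0104). Its log2 fold changes were -1.23 and -1.13 in the other comparisons. pax2a and wt1a, kidney regulators, had -0.65 and -0.90 in pbx2/4 morphants (edgeR adjusted p = 0.0199 and 0.0337). Leaving out single libraries kept the cdx1a call in both comparisons with controls, lost it in 5 of 6 fits against prdm1 mutants (adjusted p up to 0.0889), and lost those of pax2a and wt1a in 4 and 5 of 6 fits in pbx2/4 morphants, with adjusted p up to 0.102 and 0.160. In double embryos against controls the calls of pax2a and wt1a were lost in 6 and 4 of 6 such fits, with adjusted p up to 0.136 and 0.125. No neural crest gene of 8 tested was called without the block, with 2, 4 and 1 at an unadjusted p under 0.05, 0, 2 and 0 by DESeq2 and 2, 4 and 1, all lower, with the block. sox9b and sox10 had -0.80 and -0.73 in double embryos against controls (edgeR adjusted p = 0.0972 and 0.105, both called with the block). In controls, prdm1 mutants, pbx2/4 morphants and double embryos, the means of sox9b were 58.0, 38.2, 47.3 and 33.3 CPM. Those of sox10 were 44.6, 30.7, 37.5 and 26.9 CPM, so both genes were also lower in prdm1 mutants than in controls. In double embryos against pbx2/4 morphants they had -0.51 and -0.48. For prdm1 mutants against controls the block called 2 of the 8, both lower. A list of 6 interneuron genes was included because tal1 is also expressed in spinal interneurons. Of these, vsx1 fell in double embryos against controls (log2 fold change -2.45, edgeR adjusted p = 0.0121). Its means were 2.47 CPM in controls and 0.443 CPM in double embryos, so the fall rests on few counts. The call was lost in 3 of 6 fits with a single library left out, with adjusted p up to 0.0654.

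Genes of the p53 and DNA damage response rose in the same groups as aplnrb. Of 13 tested, 8 rose in pbx2/4 morphants, 9 in double embryos against controls and 10 in double embryos against prdm1 mutants. None fell without the block, and none was called in prdm1 mutants against controls. With the block, 11, 11 and 11 were called higher and 1, 0 and 0 lower in the 3 morpholino comparisons. The summed level of the list was 1019 to 1892 CPM in controls and 990 to 2039 CPM in prdm1 mutants, against 3383 to 4363 CPM in pbx2/4 morphants and 3784 to 4080 CPM in double embryos. mdm2, the inhibitor and target of p53, rose from 97.6 to 295 CPM in pbx2/4 morphants (log2 fold change 1.6), a call lost when the control of set A or that of set C was left out. sesn1, a stress-response gene, rose in pbx2/4 morphants with a log2 fold change of 1.4, and its calls held in all fits with a single library left out. phlda3, tp53inp1 and ccng1, all p53 targets, rose by 2.72, 1.51 and 1.81 on the log2 scale in pbx2/4 morphants, and bbc3, a pro-apoptotic gene, by 2.14 in double embryos against controls. These calls were lost in 1, 4, 4 and 4 of 6 fits with a library left out, each of them when the control of set C was missing, with adjusted p up to 0.0609, 0.119, 0.127 and 0.146. Their part in the differences of aplnrb and lcp1 was not tested.

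The genes whose levels were most like each member were found by Pearson r of log2 CPM over the 12 libraries, after the mean of the set was subtracted, among 11722 genes. The points share libraries, sets and depth, and with so many genes compared the highest r is large for any gene, so these values are descriptions with no p. For aplnrb the closest were ddx39b and bmp3, both at r = 0.991, and bmp3 had 44.8, 36.8, 68.7 and 63.2 CPM in controls, prdm1 mutants, pbx2/4 morphants and double embryos. For lcp1 they were mcm7 (r = 0.995) and epha4a (0.993), and epha4a had 238, 236, 181 and 180 CPM, a smaller difference than that of lcp1. For tal1 they were slc25a15b (0.961) and postn (0.958). The closest to aplnra were mtdhb (0.964) and OTOP1 (0.955), and to gata1a fn1b (0.966) and CHFR (0.961). The closest to kdrl were capza1a (0.951) and nfe2l3 (0.937), to fli1a arrdc1a (0.929) and cog3 (0.920), and to cdh5 etfb (0.917) and neil1 (0.857). For lmo2 ADAMTS3 and ostf1 both had r = 0.895.

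Genes beside the members in RefSeq GRCz12tu, whose order alone was used, were read in the same contrasts. Next to aplnrb, tbc1d10ab had log2 fold changes of 0.23 in pbx2/4 morphants, 0.92 in double embryos against controls and 0.08 in double embryos against prdm1 mutants (edgeR adjusted p = 0.881, 0.184 and 0.972), and 0.84 in prdm1 mutants against controls. The value of 0.92 is above that of aplnrb in the same comparison, and it was not called. Next to lcp1, cnot11 had -0.11 and -0.29 (edgeR adjusted p = 0.929 and 0.750). Beside kdrl lies cdx4, a blood-patterning caudal gene, with -0.02 in pbx2/4 morphants. No neighbour was read for fli1a, and those of aplnra and gata1a had no value. The neighbours with a value were cdx4, cdh11, tbc1d10ab, ier5, pdzk1ip1, caprin1b and cnot11. None of them was called in any of 5 group comparisons. Only 0.149% to 2.25% of all tested genes were called in these, so the absence of a call says little.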

How the data were processed

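RNA was sequenced from pooled embryos in 12 libraries. The authors deposited estimated counts per gene, not normalised, of which 13.7% were not whole (tolerance 1e-06), and all were rounded here. The submitters' processing notes name TopHat 1.4, edgeR and Zv9, and the counting method is not stated. Column names give the group and no replicate number. Genes were tested with edgeR 4.0.16 in R 4.3.3 (quasi-likelihood, TMM scaling, filterByExpr, all 12 libraries, no block), with Benjamini-Hochberg adjustment over 18117 genes and a call at an adjusted p under 0.05. A standard error is the size of the log2 fold change over the root of its F. Sets come from the form of the column names. Deviations from group means correlated at 0.45 to 0.67 for 18 pairs of libraries within a set. For 36 pairs that differed in both set and group the values were -0.48 to -0.03. Those negative values are partly built in, since each group mean was taken over 1 library per set. Because of the correlation within sets, the blocked value is given for members and named list genes where it changes a call printed here. The coefficient of variation was 0.212, and 0.0754 with the block. Alternatives were RLE scaling, no scaling, DESeq2 1.42.0, other filters, fewer groups, unrounded counts and leaving out libraries. Scripts were tested on simulated data with a fixed dispersion, no set effect and no block, so that test does not cover the blocked calls.

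The members and the 9 other lists were chosen with earlier results of these data known. Named genes were all members, list genes called in any contrast (at most 6 per list, or the 2 of smallest p), and for each member the 2 named genes of highest correlation at a mean of at least 1 CPM (log2 CPM with a prior count of 2). Intervals are 95%. Levels are not compared between genes, since lengths were not used, and the authors' own comparison tables were not used. Libraries of a group differed by far more than sampling noise (smallest chi-square per gene 11.9), and none were merged.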

Additional observations from a re-analysis of the deposited data

How the results depend on the processing

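Direction and size held better than calls for aplnrb and lcp1: both kept their sign in every alternative of the 3 morpholino comparisons. Fitting only the groups of a contrast lost aplnrb in both comparisons with controls (adjusted p = 0.0600 and 0.0935) and lcp1 in double embryos against prdm1 mutants (0.0783), and leaving out set B, an alternative chosen after seeing the data, lost aplnrb in both comparisons with controls (0.0775 and 0.0761). Comparisons follow in the order prdm1 mutants, pbx2/4 morphants and double embryos against controls, double embryos against prdm1 mutants and against pbx2/4 morphants. The genes called, 35, 260, 407, 247 and 27, became 199, 3203, 3655, 2935 and 218 with the replicate block, 65, 559, 740, 571 and 65 with DESeq2, 18, 120, 205, 95 and 15 with only the groups of the contrast, and 22, 108, 247 and 153 without set B in the first 4. Leaving out 1 library gave 14 to 23, 78 to 168, 163 to 311, 72 to 196 and 17 to 23. Of the 9 members, 4 were called with the replicate block in double embryos against prdm1 mutants, 1 in each morpholino comparison with only the groups of the contrast, 1 in each comparison of the morpholinos with controls without set B, and 0 to 1, 0 to 1 and 1 to 2 with 1 library left out. Of the vessel and blood lists, with 0 called, the replicate block called 15, 13 and 17, DESeq2 1, 4 and 1, and in double embryos against controls leaving out set B called 1 and leaving out single libraries 0 to 1. The block also lifted aplnra and tal1 past the threshold in double embryos against prdm1 mutants, as given above. Their log2 fold changes were 0.24 and -0.34 in both fits, with SEs of 0.125 and 0.156 without the block and 0.0750 and 0.0941 with it. Why the SEs fell was not tested. With the block and 1 library left out, these 2 calls were made in 0 of 6 fits. In pbx2/4 morphants, kdrl, tal1 and gata1a were each called in 1 of 6 such fits, as was kdrl in double embryos against controls.

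Signs turned only for members that were not called. Uncalled values also moved without a turn of sign when 1 library was left out of the fit with no block: in pbx2/4 morphants cdh5 ranged from -0.56 to -0.14, tal1 from -0.29 to -0.051 and gata1a from -0.62 to -0.073. Without scaling, fli1a and aplnra in double embryos against controls became 0.011 and 0.041, and aplnra became 0.00018 with the replicate block and 0.028 without set B. DESeq2 gave -0.0051 for the lcp1 interaction. Without set B, lmo2 became -0.013 in prdm1 mutants against controls and -0.038 in double embryos against pbx2/4 morphants, and gata1a -0.22 in the latter. Leaving out 1 library, with or without the replicate block, gave log2 ranges that cross 0. In prdm1 mutants these were kdrl -0.22 to 0.0059, tal1 -0.054 to 0.22, lmo2 -0.074 to 0.14, gata1a -0.032 to 0.57 and lcp1 -0.54 to 0.054. In pbx2/4 morphants the range was -0.0071 to 0.20 for lmo2. In double embryos against controls they were fli1a -0.094 to 0.028, aplnra -0.065 to 0.062 and lmo2 -0.00011 to 0.20. Against prdm1 mutants they were cdh5 -0.036 to 0.19 and lmo2 -0.022 to 0.16. Against pbx2/4 morphants they were kdrl -0.16 to 0.15, cdh5 -0.10 to 0.27, tal1 -0.20 to 0.062, lmo2 -0.088 to 0.079, gata1a -0.19 to 0.40 and lcp1 -0.59 to 0.15. For the interaction they were fli1a -0.18 to 0.054, kdrl -0.063 to 0.25, lmo2 -0.14 to 0.081, gata1a -0.50 to 0.11 and lcp1 -0.36 to 0.39. With the block alone, kdrl, tal1, gata1a and lcp1 kept 1 sign in prdm1 mutants (-0.21 to -0.016, 0.012 to 0.15, 0.12 to 0.41 and -0.32 to -0.12). So did lmo2 in pbx2/4 morphants and in double embryos against controls and against prdm1 mutants, and lcp1 in double embryos against pbx2/4 morphants. The other ranges listed crossed 0 with the block alone as well. The cause was not tested. With 3 libraries a group a missed call does not show that groups are alike.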
